A study of Neotoma lepida with 16 samples.

Results

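The translation initiation and elongation factors were defined by gene name: every probe of the array whose name begins with Eif or Eef followed by a digit. No measured value entered the rule, although the members were chosen with earlier results of these data known. It took 85 of 41012 probes, which stand for 50 of 35561 named genes. Of these, 74 probes and 46 genes passed the filter on dim or outlier-marked spots and were tested, among 26486 genes in all. Eif1a, Eif2ak1 and Eif2ak4 were too dim to be tested, and Eef1d was left out because 10 of its 16 spots carried outlier marks.

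The RNA came from the livers of 16 wild-caught desert woodrats (Neotoma lepida), herbivorous rodents of western North America, taken from the Mojave and the Great Basin populations. The animals had lived on rabbit chow in captivity for 3 months. They were then given growing amounts of creosote bush or of juniper in the chow over 5 days, so that the 4 groups of 4 animals were Mojave creosote, Mojave juniper, Great Basin creosote and Great Basin juniper. All 4 Mojave creosote animals were male, and every other group held 2 males and 2 females. There was no chow-only group, so a level higher on creosote cannot be told apart from one that was lower on juniper. Each animal was measured on 1 two-colour rat array against an equimolar pool of all 16 livers, and values are given as log2 of animal over pool.

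The initiation factors bring the small ribosomal subunit, the initiator tRNA and the capped mRNA together, and the elongation factors then deliver tRNAs and move the ribosome along the message. Entry is controlled at the cap, where 4E-binding proteins hold eIF4E away from eIF4G, and at eIF2, whose phosphorylation blocks its exchange factor eIF2B and lowers initiation throughout the cell. The liver makes most plasma proteins and is among the tissues with heavy protein synthesis. Genes are written as the array names them, and several eIF3 subunits carry older symbols. Eif2c1 to Eif2c4 are older names of the Argonaute proteins of RNA silencing, which are no translation factors but fall under the rule.

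The arrays had 45.6 to 75.9% of probes above background, and 1 of the 4 slides was dimmer than the others, with a mean of 48.48% against means of 65.5 to 71.28%. Of the 46 tested genes, 40 were above background on all 16 arrays. On every slide the creosote animals lay at positions 1 and 2 and the juniper animals at positions 3 and 4, with each population at its own position within a diet, so diet, population and array position cannot be told apart. Differences were tested with limma on all 4 groups with a sex term, and a gene was called at a Benjamini-Hochberg adjusted p under 0.05 over all 26486 genes. With 4 animals per group precision is limited by the small number of arrays, and over the members the median SE of a diet difference was 0.13 in Mojave and 0.12 in Great Basin. Rat probes were used on woodrat RNA, and a mismatch in sequence would weaken a probe's signal, so levels of different genes are not compared.

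In the Mojave population, livers on creosote held less mRNA of Eif4ebp1, of some cap-binding, eIF3 and eIF2B members, and of the elongation factor Eef2. In total 9 of 46 genes fell (19.6%) and none rose, against 9.56% of all genes called, 5.73% lower and 3.83% higher. The 9 were Eif4ebp1, Eif3s7, Eif4g1, Eif3s4, Eif2b4, Eif4g2, Eif3s9, Eef2 and Eif2b2. Among genes above background on all arrays, 9 of 40 members fell (22.5%) against 9.57% of 15027 genes. The median difference of the members was -0.17, against 0.00 over all genes, and 33 of 46 members (71.7%) had a negative difference against 51.0% of all genes. The median member level of each animal lay between -0.14 and -0.08 on creosote and between 0.04 and 0.14 on juniper. With each array centred on its median in place of loess, 24 of 46 members fell, against 18% of all genes called, and 86.3% of all calls were lower, against 60.0% with loess. The median difference of the 40 bright members was then -0.66, against -0.21 over all genes above background on all arrays, compared with -0.27 and -0.02 under loess. Without the 4 arrays of the dim slide 5 members fell, against 6.57% of all genes called, and among male animals alone 4 fell, against 4.04%.

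In the Great Basin population 2 of 46 genes were called (4.35%), against 4% of all genes, 2.08% higher and 1.93% lower, a share near the background. Eif4ebp1 fell and Eif1b rose. All-gene calls were 48.1% lower, against 36.5% with median centring and 58.1% with the animal channel alone. The count was 1 without Great Basin creosote 2, 3 or 4, without any Great Basin juniper animal, without Mojave creosote 3 or without any Mojave juniper animal, with Eif1b lost each time, and 0 without the dim slide. The median difference was -0.06, against -0.01 over all genes, and 33 of 46 members (71.7%) again had a negative sign, against 51.6% of all genes. The median member level of each animal ranged from -0.08 to -0.05 on creosote and from -0.09 to 0.03 on juniper, so the groups overlapped. Averaged over the populations, 8 of 46 genes were called (17.4%), against 12.1% of all genes, 5.73% higher and 6.38% lower. Among genes above background on all arrays, 8 of 40 members were called, against 19% of 15027 genes in either direction. Of the 40, 17.5% fell, against 10.1% of the 15027. Eif1b rose and 7 genes fell (Eif4ebp1, Eif3s7, Eif4g1, Eif4g2, Eif3s9, Eef2 and Eif2b2). The count was 5 without Great Basin juniper 3.

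**Figure D1:**
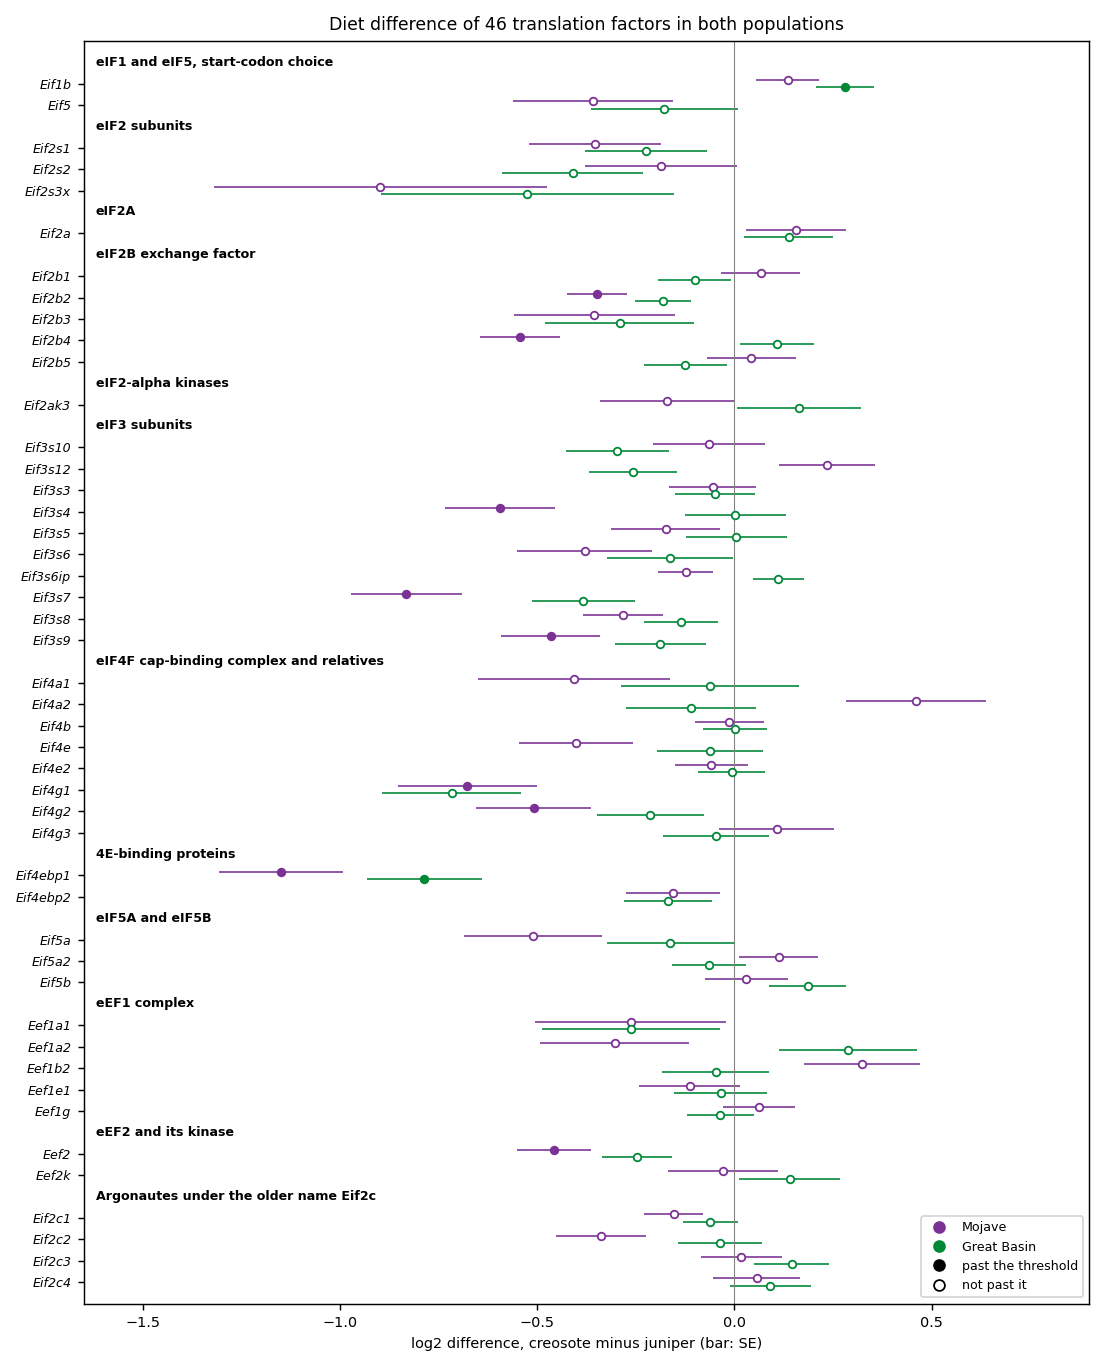
Difference between creosote and juniper livers (log2, x axis) with its SE for each of the 46 tested genes, grouped by role down the page, in Mojave (purple) and Great Basin (green), with filled points past the threshold. The filled Mojave points all lie left of 0, between -1.15 and -0.35, and the filled Great Basin points are Eif4ebp1 at -0.79 and Eif1b at 0.28.

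Hepatocyte markers moved the other way. Of 13 tested markers (Tf and Apoa1 were not kept), 5 rose on creosote in Mojave and 4 in Great Basin, and none fell. Alb, the gene of serum albumin, was higher by 1.62 in Mojave (adjusted p = 0.00413), and its 2 further probes gave 0.81 and 0.12. The summed marker signal of the animal channel was 1774916 to 2067161 in Mojave creosote and 1721681 to 1809682 in Mojave juniper livers, and 1649159 to 2038752 in Great Basin creosote and 1658084 to 1823077 in Great Basin juniper livers. Of 9 stellate cell and fibroblast markers, Timp1 rose in both populations and Rgs5 in Great Basin. Their summed signal was 6926 to 9766 in Mojave creosote and 4464 to 6158 in Mojave juniper livers, and 5715 to 9798 in Great Basin creosote and 4204 to 6583 in Great Basin juniper livers. Of the other marker lists, Cd14 fell in Great Basin (1 of 10 Kupffer cell genes), Xlkd1, now Lyve1, rose in both populations (1 of 7 endothelial genes), and Ela1 rose in Mojave (1 of 11 pancreas and intestine genes) with 0.02 at its second probe. None of 3 cholangiocyte, 3 lymphocyte and 3 erythroid genes was called. The part of these marker changes in the results was not tested, and in whole liver fewer cells of a type cannot be told apart from less RNA per cell.

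The largest difference of any member was that of Eif4ebp1, the gene of 4E-BP1, the repressor that binds eIF4E when mTOR is inactive. Eif4ebp1 stood at -0.90, -0.92, -1.32 and -0.96 in the 4 Mojave creosote livers, against -0.07, 0.17, 0.27 and 0.14 in Mojave juniper livers. In Great Basin it stood at -0.57, -0.45, -0.20 and -1.05 on creosote and at 0.29, 0.17, 0.23 and 0.20 on juniper. Every creosote animal lay below every juniper animal in both populations. The fitted difference was -1.15 ± 0.16 (SE, n = 4 per group), a 2.22-fold lower level, in Mojave (adjusted p = 0.000534) and -0.79 ± 0.14, a 1.73-fold lower level, in Great Basin (adjusted p = 0.00576). The gene's second probe was also called lower in both, at -0.96 in Mojave and -0.65 in Great Basin. The difference between the populations' responses was -0.36 ± 0.21 and was not called (adjusted p = 0.506). Without the 4 arrays of the dim slide the Great Basin call was lost (-0.78, adjusted p = 0.0563), as it was with each array centred on its median (-0.68, adjusted p = 0.0769) and among males alone (-0.72, adjusted p = 0.075). The paralogue Eif4ebp2 was not called, at -0.16 ± 0.12 in Mojave and -0.17 ± 0.11 in Great Basin. A dimmer second Eif4ebp2 probe, also not called, gave -0.43 ± 0.15 in Mojave (adjusted p = 0.087 over probes) and -0.03 ± 0.14 in Great Basin.

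**Figure D2:**
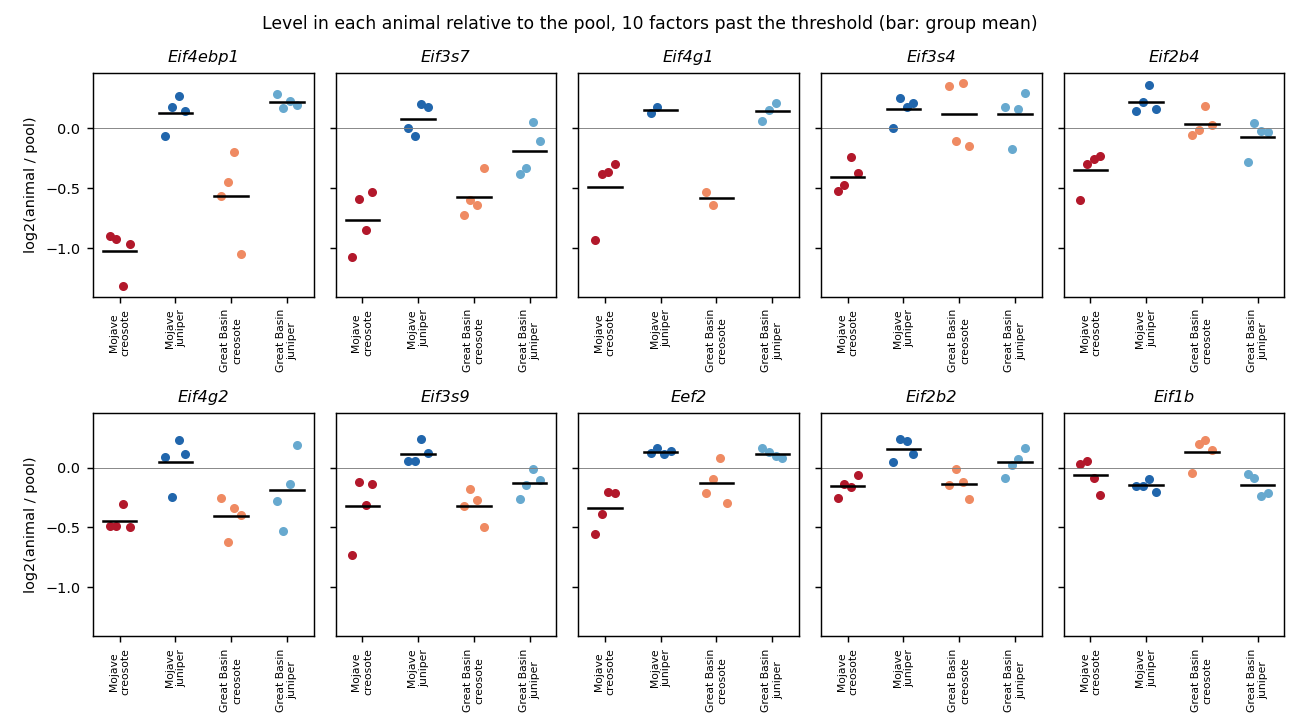
Log2 of animal over pool (y axis) for each animal of the 4 groups (x axis) for the 10 genes past the threshold in a diet comparison, with bars for the group means. Mojave creosote animals lie below all Mojave juniper animals in 9 of the panels, all but Eif1b, and 5 values of Eif4g1 are missing because of outlier marks.

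The complex that recognises the cap consists of eIF4E, the helicase eIF4A and the scaffold eIF4G. Of its 8 tested genes and relatives, 2 fell on creosote in Mojave and none was called in Great Basin. Eif4g1, the main scaffold, stood at -0.93, -0.38, -0.36 and -0.30 in Mojave creosote livers and at 0.13 and 0.18 in the 2 Mojave juniper livers that gave a value. Its 2 Great Basin creosote values were -0.53 and -0.64 and its 3 Great Basin juniper values 0.06, 0.15 and 0.21, so no groups of diet overlapped. The difference was -0.68 ± 0.18 in Mojave (SE, 4 against 2 animals, adjusted p = 0.0382) and -0.72 ± 0.18 in Great Basin (2 against 3 animals, adjusted p = 0.0531).

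Of the 16 Eif4g1 spots, 5 had been left out for outlier marks, and with all such spots kept the differences were -0.70 (adjusted p = 0.00664) in Mojave and -0.45 (adjusted p = 0.0751) in Great Basin, where the groups then overlapped. The Mojave call of Eif4g1 was lost when 1 of 9 animals was left out, with adjusted p from 0.0541 without Mojave creosote 2 to 0.184 without Mojave juniper 3. The others were Great Basin creosote 1 (0.0772) and 4 (0.0734), Great Basin juniper 2 (0.0986), 3 (0.0591) and 4 (0.0596), and Mojave juniper 1 (0.0984) and 2 (0.0736). Without Mojave juniper 1 or 3 that group held 1 value, which was assumed to vary like the other groups. The call was also lost with an offset of 10 (adjusted p = 0.0612), with the scanner's processed signals (0.0743) and with the animal channel alone (0.107), and, with 1 Mojave juniper value left, among males (0.201) and without the dim slide (0.41). A second Eif4g1 probe had 15 values and gave -0.66 ± 0.15 in Mojave (adjusted p = 0.0115 over probes) and -0.48 ± 0.14 in Great Basin (0.075). The third and dimmest kept probe of the gene gave -0.997 ± 0.31 in Mojave (adjusted p = 0.0534 over probes). In Great Basin it gave 0.84, -0.21, 1.16 and -0.51 in Great Basin creosote and -0.06, 0.12, 0.11 and 0.28 in Great Basin juniper livers, so that the creosote values lay on both sides of the juniper values.

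Eif4g2 encodes an eIF4G relative without the eIF4E-binding part, which takes part in cap-independent initiation. It stood at -0.49, -0.49, -0.30 and -0.49 in Mojave creosote livers, against 0.09, -0.24, 0.23 and 0.11 in Mojave juniper livers. The groups did not overlap, and Mojave juniper 2 lay nearest to the creosote animals. In Great Basin the values were -0.26, -0.62, -0.34 and -0.39 on creosote and -0.28, -0.53, -0.14 and 0.19 on juniper, and the groups overlapped. The difference was -0.51 ± 0.15 in Mojave (SE, n = 4 per group, adjusted p = 0.0393) and -0.21 ± 0.14 in Great Basin (adjusted p = 0.471). The 3 further probes of Eif4g2 showed larger Mojave differences, of -0.75, -0.78 and -1.24, each called, and Great Basin differences of -0.19, -0.03 and -0.25, none called. With the probe used, the Mojave call was lost without Mojave creosote 1 (adjusted p = 0.0799), 2 (0.0839) or 4 (0.0755), or without Mojave juniper 1 (0.113), 3 (0.0763) or 4 (0.0757). It was also lost without Great Basin creosote 1 (adjusted p = 0.0551) or Great Basin juniper 1 (0.0575) or 3 (0.0565), which enter the Mojave test only through the shared variance, sex term and adjustment. Other losses came among males alone (adjusted p = 0.205), without the dim slide (0.124), with processed signals (0.115) and with an offset of 10 (0.0572).

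The other cap-binding members were not called. The cap-binding protein gene Eif4e was at -0.40 ± 0.14 in Mojave (adjusted p = 0.102) and at -0.06 ± 0.13 in Great Basin. Its second probe gave -0.13 ± 0.15 in Mojave and 0.07 ± 0.14 in Great Basin. The helicase genes Eif4a1 and Eif4a2 differed in sign in Mojave, at -0.41 ± 0.24 and 0.46 ± 0.18 (adjusted p = 0.366 and 0.127). Of 5 Eif4a1 probes 1 was called lower in Mojave, at -1.10 ± 0.26 (adjusted p = 0.0129 over probes), while the other probes lay between -0.41 and -0.05. Eif4b stimulates the helicase. At their brightest probes Eif4b, the eIF4E relative Eif4e2 and the third scaffold Eif4g3 lay between -0.06 and 0.11 in Mojave. In Great Basin they lay between -0.05 and 0.00. A second Eif4g3 probe gave -0.79 ± 0.41 in Mojave (adjusted p = 0.289 over probes) and -0.19 ± 0.38 in Great Basin. Second probes gave -0.06 in Mojave and -0.30 ± 0.14 in Great Basin for Eif4e2, and 0.01 and 0.09 for Eif4b.

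The eIF3 complex is the large scaffold that joins the small ribosomal subunit to the mRNA-bound factors. Of its 10 subunits on the array 3 fell in Mojave, none was called in Great Basin, and the median difference was -0.23 in Mojave and -0.15 in Great Basin. Eif3s7, now Eif3d, whose product can itself bind the cap of some messages, stood at -1.08, -0.59, -0.85 and -0.54 in Mojave creosote livers, against 0.00, -0.06, 0.21 and 0.18 in Mojave juniper livers. In Great Basin the values were -0.73, -0.60, -0.64 and -0.34 on creosote and -0.38, -0.33, 0.06 and -0.10 on juniper. The Mojave groups lay well apart, and in Great Basin creosote 4 fell within the juniper range. The difference was -0.83 ± 0.14 in Mojave, or 1.78-fold lower (SE, n = 4 per group, adjusted p = 0.00194), and -0.38 ± 0.13 in Great Basin (adjusted p = 0.124). The second Eif3s7 probe gave -1.02 ± 0.13 and -0.33 ± 0.11.

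Eif3s4, now Eif3g, an RNA-binding subunit, stood at -0.52, -0.47, -0.24 and -0.38 in Mojave creosote livers, against 0.00, 0.26, 0.17 and 0.22 in Mojave juniper livers. The Great Basin values were 0.35, -0.11, 0.38 and -0.15 on creosote and 0.18, -0.17, 0.16 and 0.30 on juniper. The Mojave groups did not overlap and the Great Basin groups spanned nearly the same range. The difference was -0.59 ± 0.14 in Mojave (SE, n = 4 per group, adjusted p = 0.0139) and 0.00 ± 0.13 in Great Basin (adjusted p = 0.996), and the interaction was -0.60 ± 0.19 (adjusted p = 0.191). Without Mojave juniper 2 the Mojave call was lost (-0.56, adjusted p = 0.0589), and likewise among males alone (-0.53, adjusted p = 0.0655).

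Eif3s9, now Eif3b, a core subunit, stood at -0.73, -0.12, -0.31 and -0.14 in Mojave creosote livers, against 0.05, 0.06, 0.24 and 0.12 in Mojave juniper livers. Its Great Basin values were -0.32, -0.18, -0.27 and -0.49 on creosote and -0.26, -0.14, -0.01 and -0.11 on juniper. Mojave creosote 1 was the lowest animal of all, and the Mojave groups did not overlap. The difference was -0.47 ± 0.13 in Mojave (SE, n = 4 per group, adjusted p = 0.0281) and -0.19 ± 0.12 in Great Basin (adjusted p = 0.456). The Mojave call of Eif3s9 was lost without any of the 4 Mojave juniper animals, at adjusted p = 0.0528, 0.0552, 0.0563 and 0.0529. It was also lost among males (0.234), without the dim slide (0.133), with processed signals (0.105) and with an offset of 10 (0.0529).

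Of the other eIF3 subunits, Eif3s8, now Eif3c, was lower in every creosote animal than in every juniper animal of the same population but was not called, at -0.28 ± 0.10 in Mojave (adjusted p = 0.099) and -0.14 ± 0.09 in Great Basin (adjusted p = 0.511). The rest (Eif3s3, Eif3s5, Eif3s6, Eif3s6ip, Eif3s10 and Eif3s12) lay between -0.38 and 0.23 in Mojave and between -0.30 and 0.11 in Great Basin. Eif3s12, now Eif3k, was the only subunit with a positive Mojave difference, at 0.23 ± 0.12, against -0.26 ± 0.11 in Great Basin, where its groups did not overlap. A further probe was called lower in Mojave for Eif3s10, now Eif3a, at -0.67 ± 0.14 (adjusted p = 0.00768 over probes), and for Eif3s6ip, now Eif3l, at -0.24 ± 0.07 (adjusted p = 0.0405 over probes).

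**Figure D3:**
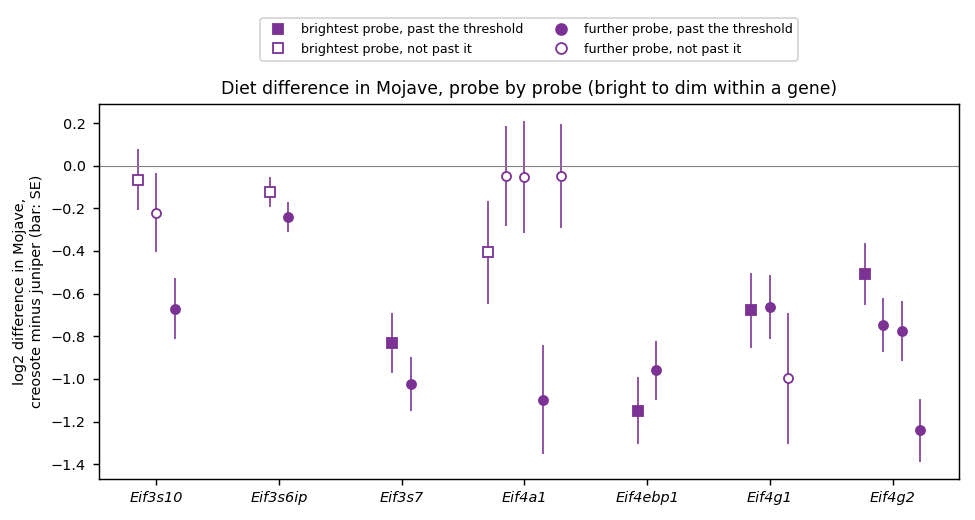
Mojave difference between creosote and juniper livers (log2, y axis) with its SE for each kept probe of the 7 members that had several kept probes and at least 1 of them called in Mojave (x axis), ordered from bright to dim. All 4 probes of Eif4g2 and both probes of Eif4ebp1 and Eif3s7 were called, and 1 of 5 Eif4a1 probes stands apart at -1.10.

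Probe by probe, 18 of 74 kept probes were called lower in Mojave and none higher, against 10% of all 30106 kept probes called in either direction. These 18 probes belonged to 12 genes. In Great Basin 3 of 74 were called, against 3.90% of all. The 28 further probes of members with several kept probes had the sign of the brightest one in 20 cases in each population.

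eIF2 carries the initiator tRNA, and none of its 3 subunit genes was called. Eif2s1 (alpha, the phosphorylated subunit) differed by -0.35 ± 0.17 in Mojave and -0.22 ± 0.15 in Great Basin, and Eif2s2 (beta) by -0.19 ± 0.19 and -0.41 ± 0.18. Further Eif2s2 probes gave -0.32 and 0.07 in Mojave and -0.13 and 0.20 in Great Basin, none called. Eif2s3x (gamma) had the widest spread of the members, with 0.37, -0.59 and 0.05 in the 3 Mojave creosote livers that gave a value and 0.38, 0.57, 0.21 and 0.47 in Mojave juniper livers. Its Great Basin values were 0.24, -1.67, -1.73 and -1.87 on creosote and -1.97, -0.90, -0.09 and 0.02 on juniper. Both Great Basin groups thus held animals near the pool and animals far below it. The Great Basin animals near the pool were all male. All Great Basin females, and the male that stood at -1.67, lay at -0.90 or below. The Mojave juniper females stood at 0.21 and 0.47. The effect of sex itself was not tested. The fitted diet difference of Eif2s3x was -0.90 ± 0.42 in Mojave (adjusted p = 0.229) and -0.53 ± 0.37 in Great Basin (adjusted p = 0.528). The Mojave value depended on the sex term of the fit. The group means there were -0.06 on creosote and 0.41 on juniper, which lie much closer together. Among males alone the Mojave difference was -0.53. The second kept Eif2s3x probe did not show the wide Great Basin spread. It ranged from -0.31 to 0.22 in Great Basin creosote and from -0.66 to 0.08 in Great Basin juniper livers.

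eIF2B recharges eIF2 with GTP and has 5 subunits, of which 2 fell in Mojave and none was called in Great Basin. Eif2b4, the delta subunit, stood at -0.60, -0.30, -0.26 and -0.23 in Mojave creosote livers, against 0.14, 0.22, 0.36 and 0.16 in Mojave juniper livers. In Great Basin the values were -0.05, -0.01, 0.18 and 0.02 on creosote and -0.28, 0.05, -0.03 and -0.03 on juniper. All Mojave creosote animals lay below, and all Mojave juniper animals above, the Great Basin animals on the same diet. The difference was -0.54 ± 0.10 in Mojave, or 1.46-fold lower (SE, n = 4 per group, adjusted p = 0.00367), and 0.11 ± 0.09 in Great Basin (adjusted p = 0.631). The interaction of population and diet, -0.65, had the smallest adjusted p of the members, 0.0898, and was not called.

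Eif2b2, the beta subunit, stood at -0.25, -0.14, -0.17 and -0.06 in Mojave creosote livers, against 0.05, 0.24, 0.22 and 0.11 in Mojave juniper livers. The Great Basin values were -0.15, -0.01, -0.12 and -0.26 on creosote and -0.09, 0.02, 0.07 and 0.17 on juniper. The Mojave groups did not overlap. The difference was -0.35 ± 0.08 in Mojave (SE, n = 4 per group, adjusted p = 0.00959) and -0.18 ± 0.07 in Great Basin (adjusted p = 0.193). The Mojave call of Eif2b2 was lost among males (adjusted p = 0.114), without the dim slide (0.0573), with an offset of 10 (0.0573) and with processed signals (0.0904). The other subunits were not called: Eif2b3 (gamma) was at -0.35 ± 0.20 and -0.29 ± 0.19, and Eif2b1 (alpha) and Eif2b5 (the catalytic epsilon) lay between -0.12 and 0.07 in both populations. Of the eIF2 kinases, which phosphorylate the alpha subunit under stress, only Eif2ak3 (PERK) was bright enough to test, and it differed by -0.17 ± 0.17 in Mojave and 0.16 ± 0.16 in Great Basin. Eif2a, an initiator-tRNA carrier separate from eIF2, differed by 0.16 ± 0.13 and 0.14 ± 0.11.

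Eif1b, a close relative of the start-codon factor eIF1, was the only member that rose. It stood at -0.04, 0.20, 0.23 and 0.15 in Great Basin creosote livers, against -0.06, -0.08, -0.24 and -0.21 in Great Basin juniper livers. In Mojave the values were 0.03, 0.05, -0.09 and -0.23 on creosote and -0.15, -0.15, -0.09 and -0.20 on juniper, and the groups overlapped. The Great Basin groups did not overlap, although creosote 1 and juniper 1 nearly coincided. The difference was 0.28 ± 0.07 in Great Basin (SE, n = 4 per group, adjusted p = 0.0458) and 0.13 ± 0.08 in Mojave (adjusted p = 0.362). The call was close to the threshold: it held in only 4 of 16 fits that each left out 1 animal, without Great Basin creosote 1 or Mojave creosote 1, 2 or 4, and the highest adjusted p, 0.116, came without Great Basin creosote 2. It was also lost with the animal channel alone (adjusted p = 0.127), among males (0.35), without the filter on dim probes (0.0531), with an offset of 10 (0.082) and without the dim slide (0.129). Eif5, which triggers GTP hydrolysis at the start codon, was not called, at -0.36 ± 0.20 in Mojave and -0.18 ± 0.19 in Great Basin. A dimmer second Eif5 probe gave 0.04 in Mojave and 0.01 in Great Basin.

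Eif5a, which helps ribosomes through difficult sequences and is the bearer of hypusine, was lower in every Mojave creosote animal than in every Mojave juniper animal. It was not called, at -0.51 ± 0.17 in Mojave (adjusted p = 0.0831) and -0.16 ± 0.16 in Great Basin (adjusted p = 0.679). The paralogue Eif5a2 and the subunit-joining factor Eif5b lay between -0.06 and 0.19 in both populations.

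Among elongation factors, Eef2, the translocase that moves the ribosome by 1 codon, fell in Mojave. It stood at -0.56, -0.39, -0.20 and -0.21 in Mojave creosote livers, against 0.12, 0.16, 0.12 and 0.14 in Mojave juniper livers. In Great Basin the values were -0.21, -0.10, 0.08 and -0.29 on creosote and 0.16, 0.13, 0.10 and 0.08 on juniper. The juniper animals of both populations lay within a narrow band, and only Great Basin creosote 3 reached it. The difference was -0.46 ± 0.09 in Mojave, or 1.37-fold lower (SE, n = 4 per group, adjusted p = 0.00662), and -0.25 ± 0.09 in Great Basin (adjusted p = 0.141). Eef2k, the kinase that inactivates eEF2, was at -0.03 ± 0.14 in Mojave and 0.14 ± 0.13 in Great Basin.

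None of the 5 tested eEF1 genes was called in either population. The eEF1 carriers deliver aminoacyl-tRNA to the ribosome, and the exchange factor recharges them. Eef1a1, the main carrier, differed by -0.26 ± 0.24 in Mojave and -0.26 ± 0.22 in Great Basin. Its paralogue Eef1a2, in mammals mainly a gene of muscle and neurons, differed by -0.30 ± 0.19 in Mojave and 0.29 ± 0.17 in Great Basin. The exchange-factor subunits Eef1b2 and Eef1g were at 0.32 ± 0.15 and 0.06 ± 0.09 in Mojave, and Eef1e1, an accessory protein of the tRNA synthetase complex, at -0.11 ± 0.13. Further Eef1g probes gave -0.15 and -0.14 in Mojave. None of the 4 Argonautes was called. Eif2c2, now Ago2, the one that cuts target RNA, was lower in every Mojave creosote animal than in every Mojave juniper animal, at -0.34 ± 0.11 (adjusted p = 0.0804), and at -0.04 ± 0.11 in Great Basin.

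Each slide held 1 animal of every group, so a creosote animal could be set against a juniper animal of its population on the same slide. In Mojave the differences ran from -1.59 to -0.83 for Eif4ebp1, from -1.08 to -0.53 for Eif3s7, from -0.74 to -0.39 for Eif2b4, from -0.73 to -0.42 for Eif3s4 and from -0.68 to -0.32 for Eef2. They ran from -0.78 to -0.18 for Eif3s9, from -0.61 to -0.25 for Eif4g2 and from -0.39 to -0.18 for Eif2b2. In Great Basin, Eif4ebp1 ran from -1.34 to -0.40 and Eif1b from 0.19 to 0.44. The diet groups of these genes did not overlap in that population, which fixes the sign on every slide, so the slides add the size of the differences and not their direction.

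**Figure D4:**
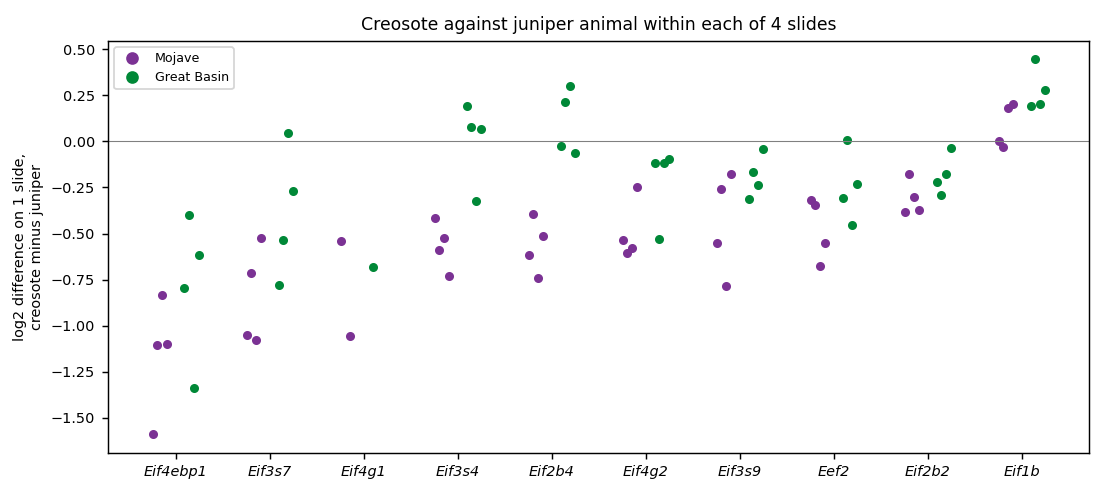
Creosote minus juniper animal on the same slide (log2, y axis) for the 10 genes past the threshold in a diet comparison (x axis), 1 point per slide, in Mojave (purple) and Great Basin (green). The Mojave points of the 9 genes that fell there lie below 0, as they must where groups do not overlap, and only 2 slides were available for Eif4g1.

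Over the 43 members with a value in every Mojave animal, 11 had all creosote animals below all juniper animals and 0 had them above (25.6%, against 16.4% of all genes in either direction and 9.19% below). In Great Basin 3 of 45 lay below and 1 above (8.89%, against 10.3% of all genes). The 3 were Eif4ebp1, Eif3s8 and Eif3s12 and the 1 above was Eif1b.

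The populations were compared on the same diet. On creosote 0 of 46 members were called by limma between Mojave and Great Basin livers, against 0.0793% of all genes, and 8 had an unadjusted p under 0.05, 6 lower and 2 higher in Mojave (17.4%, against 14.1% of all genes). The smallest adjusted p was 0.113, for Eif3s4, at -0.55 ± 0.14. Without Great Basin creosote 4 the creosote comparison called 2 members, against 1.79% of all genes, and with median centring 13 members, all lower in Mojave, against 11.8% of all genes. On juniper 0 of 46 were called, against 0.0113% of all genes, and 8 had an unadjusted p under 0.05, 2 lower and 6 higher in Mojave (17.4%, against 8.06% of all genes). The largest of these differences was that of Eif2s3x, at 1.14 ± 0.37 (adjusted p = 0.412), where the 4 Mojave animals lay above all Great Basin animals. At the second kept Eif2s3x probe the groups overlapped, from -0.20 to 0.20 in Mojave juniper and from -0.66 to 0.08 in Great Basin juniper livers. At the brightest probes the differences of the 3 eIF2 subunits were positive on both diets, 0.26 to 0.77 on creosote and 0.36 to 1.14 on juniper, with none called. Further probes did not all follow. On creosote the second Eif2s3x probe gave -0.12, and further Eif2s2 probes gave 0.06 and -0.12. On juniper the same probes gave 0.33 for Eif2s3x and 0.25 and 0.00 for Eif2s2. Complete separation of the populations was seen in 5 of 43 members on creosote, 3 below and 2 above (11.6%, against 5.94% of all genes), and in 5 of 45 on juniper, all above (11.1%, against 6.70%).

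The response to diet was not shown to differ between the populations for any member. The interaction called 0 of 46 members, against 0% of all genes, and 7 had an unadjusted p under 0.05, 5 with the more negative difference in Mojave, while 13% of all genes had one. The median interaction of the members was -0.14, against 0.00 over all genes. The Mojave and Great Basin counts of 9 and 2 therefore do not show that the populations responded differently, and both comparisons draw on the same fit. With each array centred on its median in place of loess the interaction called 11 members, against 9.18% of all genes. Without the sex term it called 1 (0.245% of all genes), and without Great Basin creosote 4 it called 1 (1.26%).

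Related genes outside the name rule were counted from lists, to be read against the 9.56% of all genes called in Mojave and 4% in Great Basin. Most of the tested list genes were above background on all arrays. Among all such genes the shares called were higher, 15.8% in Mojave and 6.42% in Great Basin. Of 16 tested cytosolic aminoacyl-tRNA synthetases and partners, which charge tRNAs with amino acids, 6 fell in Mojave and none was called in Great Basin. The largest were Tars (threonine) at -0.83, Nars (asparagine) at -0.68, Qars (glutamine) at -0.56 and Vars2 (valine) at -0.56, with adjusted p from 0.00112 to 0.00975. The name Vars2 does not settle whether its probe reads the cytosolic or the mitochondrial enzyme. Of 7 cap and poly(A) partners, Pabpc1, the main poly(A)-binding protein, fell by 0.72 in Mojave (adjusted p = 0.00687) and Larp1, a repressor of messages for the translation machinery, fell by 0.48 (adjusted p = 0.0153), while Pdcd4, which blocks eIF4A, was higher by 0.66 (adjusted p = 0.0367). Of 11 termination, recycling and other factors, Abce1, the ribosome-recycling ATPase, was called in Mojave at -0.72 and Gtpbp2, a ribosome-rescue factor, at -0.65, although a second Gtpbp2 probe gave 0.27. Of 4 mitochondrial translation factors, Tufm, the mitochondrial elongation factor Tu, fell by 0.60 in Mojave.

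The mTOR pathway controls 4E-BP1 by phosphorylation, and 5 of its 19 tested genes were called in Mojave, 1 higher and 4 lower, and none in Great Basin. Ddit4, an inhibitor of mTOR complex 1 that responds to stress and glucocorticoids, was higher by 1.41 (adjusted p = 0.0129). Akt1, an upstream kinase, fell by 0.80, Rheb, the direct activator of the complex, by 0.74 with -0.47 at its second probe, and Gbl, now Mlst8, a subunit of it, by 0.41. Ddit4 stood at 0.83 in Great Basin (adjusted p = 0.151).

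In mice Eif4ebp1 and many tRNA synthetase genes are known targets of the stress-induced factor ATF4. Of 19 tested genes of the integrated stress response 2 fell in Mojave, a share near that of all genes: Atf5 by 0.95 (adjusted p = 0.00181) and Myd116, now Ppp1r15a, by 0.41. Atf5 also fell by 1.20 in Great Basin (adjusted p = 0.000345), the only one called there. Atf4 itself did not pass the threshold in either population, at 0.61 in Mojave (adjusted p = 0.0507) and 0.45 in Great Basin (adjusted p = 0.178), and averaged over both it was higher by 0.53 (adjusted p = 0.0118).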

How the data were processed

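Liver RNA of 16 woodrats was hybridised in the Cy5 channel against a Cy3 pool of all 16, with no dye swap. Per the file headers, the deposited scanner files give each spot's mean signal and local background as linear intensity, processed signals as intensity, and a log10 ratio of red over green. Agilent Feature Extraction 9.1.3.1 is named in the submitters' processing notes. The authors' deposited series values are log2 ratios that equal log2 of processed red over green within 5e-10.

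Mean and background intensity were read in R 4.3.3 with limma 3.58.1, background-corrected by normexp (offset 50) and normalised by loess within each array. Outlier-marked spots were left out, spots of a probe were averaged, and probes needed to be above background on 4 arrays with 2 values per group. The brightest kept probe stood for a gene. A linear model held the 4 groups and sex, with 11 residual degrees of freedom. The p-values were moderated and adjusted by Benjamini-Hochberg (threshold 0.05) over 26486 genes. With the sex term a fitted difference can differ from a difference of group means, and for Eif2s3x in Mojave the gap was large. The fit was tested on simulated data with independent noise and changes in Mojave creosote only. Left-out spots and effects of sex, slide and array position were not simulated.

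The members, roles and lists were chosen with earlier results of these data known, and no test of a list was made. Named were all members past the threshold, with values in every animal for the 10 past it in the diet comparison of either population, and other members of the same complexes. Eif2s3x, single further probes and Eif3s8, Eif5a and Eif2c2 were singled out after their values were seen, and list genes were named only past the threshold. Replicate numbers did not pair the samples: deviations of same-numbered animals correlated at -0.17 to 0.14 over 24 pairs, 3 of them over 0.1. Alternatives were median centring, the deposited processed signals, an offset of 10, other filters and probe choices, no sex term, blocks for slide or replicate number, the animal channel alone, males alone, no dim slide, and each animal left out. Keeping outlier-marked spots was added after seeing the data. Probe sequences and genome positions were not used here.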

Additional observations from a re-analysis of the deposited data

Results flagged for a closer look

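Within the groups of 4, the animal furthest out was tested by its gap to the nearest other animal against the range of the group, for the 10 genes past the threshold in a diet comparison. Of 37 such tests 3 stood out, and chance picks about 1 in 20 groups. Eif4ebp1 in Mojave creosote 3 stood at -1.32, below the other 3 animals of its group, which lay between -0.96 and -0.90. The second probe of the gene gave -0.86 in that animal, against -0.76, -0.70 and -0.60 in the other 3. Eif4g1 in Mojave creosote 1 stood at -0.93, below the others at -0.38 to -0.30, and the second probe gave -1.22 in the same animal, against -0.61 to -0.53. Eif4g2 in Mojave creosote 3 stood at -0.30, above the others at -0.49, while the next brightest probe gave -0.57 in that animal, within the range of -1.12 to -0.49 of the others. Eif3s7, Eif3s9, Eif2b4, Eef2, Eif3s4 and Eif2b2 also had their lowest value of the group in Mojave creosote 1, without passing this criterion. These values were -1.08, -0.73, -0.60, -0.56, -0.52 and -0.25. Of the genes called in Mojave, only Eif4ebp1 and Eif4g2 had their lowest value of the group in another animal.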

How the results depend on the processing

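The diet count averaged over the populations was 8, against 16 with every kept probe on its own, 17 with median centring, 3 among males alone and 4 without the dim slide. In Mojave it was 9, against 18 (probes on their own), 24 (median centring), 4 (males), 5 (offset 10), 5 (processed signals) and 5 (no dim slide). In Great Basin it was 2, against 1 with the animal channel alone, median centring, no filter or offset 10, and 0 among males or without the dim slide. The interaction called 0, against 11 with median centring and 1 without the sex term, and the population comparison on creosote 0, against 13 with median centring. Over all genes the median-centred fits called 18% in Mojave, 14.6% averaged, 9.18% for the interaction and 11.8% for the population comparison on creosote. The cause of these shifts was not tested, except that the males-only and no-dim-slide fits hold fewer animals and the probe fit counts probes. With the replicate number as a block, the counts were 2 in Great Basin, 9 in Mojave and 10 averaged, which added Eif2b4 (-0.23, adjusted p = 0.0157) and Eif3s4 (-0.31, adjusted p = 0.0489) to the averaged calls. With the slide as a block they were 2, 10 and 11. Leaving out 1 animal at a time gave 6 to 11 in Mojave, 1 to 3 in Great Basin, 5 to 12 averaged, 0 to 1 for the interaction, 0 to 2 for the population comparison on creosote and 0 to 0 on juniper.

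Eef2, Eif2b4, Eif3s7 and Eif4ebp1 were called lower in Mojave in all 14 alternatives and all 16 fits without 1 animal. Eef2 and Eif2b4 had 1 probe each, without outlier marks and above background on all 16 arrays. For these genes the alternatives on filters, probe choice and outlier marks used the same spots, so they could hardly lose the call. Of the other Mojave calls, Eif2b2 was lost among males and without the dim slide (adjusted p = 0.114 and 0.0573), with an offset of 10 (0.0573) and with processed signals (0.0904). Eif4g1, Eif4g2 and Eif3s9 were lost in the same 4 alternatives, Eif4g1 also with the animal channel alone (adjusted p = 0.107), and Eif3s4 among males. For Eif4g1 the fits on males and without the dim slide held 1 Mojave juniper value, which was assumed to vary like the other groups. No called gene difference changed sign. Uncalled Great Basin differences near 0 did: Eif2b4 was -0.0051 among males, and Eif3s4 was -0.107 among males, -0.0163 with an offset of 10, -0.013 with processed signals, -0.0606 without the dim slide and -0.10 to 0.10 without single animals. The offset draws the ratios of dim probes towards 0. The 6 tested members that were not above background on every array were not called. The calls lost with an offset of 10 were of members above background on every array. They were Eif2b2, Eif4g1, Eif4g2 and Eif3s9 in Mojave and Eif1b in Great Basin. Eif1b was nevertheless a dim member, with a mean log2 signal of 7.25. The median over the 40 members above background on every array was 11.41. The Great Basin difference of Eif1b was 0.38 with an offset of 10, against 0.28.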
